A study of Mus musculus with 2 samples.

Results

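The genes described here carry names from sperm and testis. They are the 58 genes of 32287 in the deposited table whose symbol starts with Spag (sperm associated antigen, 13 genes), Spata (spermatogenesis associated, 30 genes), Tekt (tektin, 5 genes), Rsph (radial spoke head, 8 genes) or Ropn1 (ropporin, 2 genes). No measured value entered that choice. They were followed in cultured mouse ependymal cells, the multiciliated cells (MCCs) that line the brain ventricles, and in the progenitors that give rise to them. Both samples were primary cultures of lateral ventricular walls from newborn mice at postnatal day 0 to 2, grown to confluence in serum and taken 2 days after serum was withdrawn. The mice were of the C57BL/6N substrain in replicate 1 and of C57BL/6J in replicate 2, and the labels name no mutation, treatment or other condition. Each culture gave 1 droplet library with the 10x Genomics 3′ v3 kit, which tags each RNA molecule with a unique molecular identifier (UMI) at its 3′ end. The submitters' cell metadata names the populations compared here, listed in the order of the lineage: progenitors I, progenitors II, cycling progenitors, early, mid and late deuterosomal cells, early MCCs and MCCs.

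Motile cilia and the sperm tail share an axoneme, in which a ring of doublet microtubules surrounds a central pair. Dyneins on the doublets slide them past each other, radial spokes reach from the doublets to the central apparatus and regulate that sliding, and tektins run as filaments along the inside of the doublet wall. Many proteins of this machine were found first in sperm or testis and named for it, and others in the same name families act in spindles, mitochondria, signalling or sperm alone. Multiciliated cells build many centrioles at once on deuterosomes, dock them at the surface and grow a cilium from each.

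In replicate 1, 12028 cells shared 173510950 UMIs (median per cell 12708), and in replicate 2, 4373 cells shared 70611931 UMIs (median per cell 14409). The libraries shared 13 cell barcodes. Marker genes set the ends of the lineage apart. The summed level of 6 MCC markers was 3123 and 2966 CPM (counts per 1000000 UMIs) in MCCs of replicates 1 and 2, against 255 and 265 CPM in progenitors I. It was 2768 and 2801 CPM in mid deuterosomal cells and 3248 and 3388 CPM in early MCCs. These markers thus did not set MCCs apart from the stages just before. A set of 5 deuterosomal markers was highest in mid deuterosomal cells in both libraries. Levels below are CPM of UMIs summed over the cells of a population in 1 library. Each molecule gives 1 UMI whatever the length of the gene, so levels are set beside each other between genes without a length correction. Besides Rsph10b, taken up below, the annotation places other genes on the same strand over Ropn1l, Spag1, Spag16, Spag17, Spag6l, Spata17, Spata24, Spata33, Spata5 and Spata7. What these overlaps do to the counts was not measured. Beyond the shared sequence given below, other differences between genes in capture or counting were not measured either. Pairs of values are for replicate 1 and then replicate 2. Differences between populations were tested with edgeR's quasi-likelihood test on these sums with the library as a block, and adjusted p-values are Benjamini-Hochberg values over the 15877 genes that passed its low count filter, with 0.05 as the threshold. The names of the populations were presumably drawn from these same RNA levels, and cells of different populations come from the same 2 cultures. With the library as a block, a shift shared by all populations of a library is set aside. A p-value thus says only whether a difference was larger than the scatter left between the 2 libraries, estimated over all populations fitted. A level in CPM is a share of a population's RNA, not an amount per cell.

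Of the 58 genes, 37 passed the filter and 21 did not. Genes that pass only because they are high in 1 population had to differ, so counts among the 37 describe these genes and support nothing further. Of the 21, 5 had no UMI in either library, namely the epididymal defensin-like genes Spag11a and Spag11b and the testis genes Spata31, Spata31d1b and Spata31d1c. A count of 0 allows up to 0.0173 CPM in replicate 1 and 0.0425 CPM in replicate 2, in counting error only. The other 16 had between 1 and 71 UMIs over both libraries. Spata25 had the most (59 and 12 UMIs), followed by Spata4 (48 and 14), Spata48 (49 and 13) and Spata5l1 (47 and 13). Spata19, Spata22, Rsph6a, Spata21, Spag6, Spata46, Spata31d1a, Spata16, Spata20, Spata31d1d, Spag17os and Spata32 had 38 UMIs or fewer. In MCCs, 36 of the 58 genes reached 1 CPM in both libraries, 22 reached 10 CPM and 17 reached 50 CPM. In progenitors I these counts were 29, 14 and 4.

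The promoters of a few members are shown first. Their highest mean levels fell at different stages of the lineage, and no link between sequence and course was tested. RefSeq (GRCm38.p6) promoters, from 250 bases before to 50 bases after a gene's start, matched 49 of the 58 genes and gave 61 promoters; entries were missing for Rsph1, Rsph10b, Rsph4a, Spag1, Spag11a, Spag11b, Spag17os, Spata24 and Spata2l. The sequences searched, on both strands, were a full X-box, which RFX factors bind (GTTNCC, 0 to 3 bases, then GGNAAC), a core of it (GTTGCNA), a motif that forkhead factors such as Foxj1 bind (TGTTTA), and the cell cycle homology element (TTTGAA). The X-box core can lie inside a full X-box. Below are the promoters of 4 members that were higher in MCCs and hold an X-box core, then Spag6l and its relative Spag6. Capitals mark the X-box core, which reads TNGCAAC where it lies on the opposite strand.
Tekt1, chr11:72361833-72362132, minus strand: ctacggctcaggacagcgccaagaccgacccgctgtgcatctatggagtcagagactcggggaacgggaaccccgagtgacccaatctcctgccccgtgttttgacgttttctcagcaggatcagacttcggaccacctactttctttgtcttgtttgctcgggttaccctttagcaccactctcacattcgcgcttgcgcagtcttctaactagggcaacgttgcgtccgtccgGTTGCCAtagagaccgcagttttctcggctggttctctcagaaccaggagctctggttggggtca
Tekt3, chr11:63061409-63061708, plus strand: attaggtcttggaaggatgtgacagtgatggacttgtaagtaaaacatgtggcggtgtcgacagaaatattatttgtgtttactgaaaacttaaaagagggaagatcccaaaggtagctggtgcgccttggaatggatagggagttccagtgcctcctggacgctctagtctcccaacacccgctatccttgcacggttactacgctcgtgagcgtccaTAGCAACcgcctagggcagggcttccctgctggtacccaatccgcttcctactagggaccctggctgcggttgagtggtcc
Rsph14, chr10:75032537-75032836, minus strand: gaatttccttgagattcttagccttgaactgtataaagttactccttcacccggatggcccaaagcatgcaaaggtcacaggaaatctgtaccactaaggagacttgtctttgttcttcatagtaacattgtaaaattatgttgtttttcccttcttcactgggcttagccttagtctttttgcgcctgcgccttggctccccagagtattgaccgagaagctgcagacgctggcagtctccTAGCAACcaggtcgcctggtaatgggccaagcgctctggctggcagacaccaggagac
Spag16, chr1:69826720-69827019, plus strand: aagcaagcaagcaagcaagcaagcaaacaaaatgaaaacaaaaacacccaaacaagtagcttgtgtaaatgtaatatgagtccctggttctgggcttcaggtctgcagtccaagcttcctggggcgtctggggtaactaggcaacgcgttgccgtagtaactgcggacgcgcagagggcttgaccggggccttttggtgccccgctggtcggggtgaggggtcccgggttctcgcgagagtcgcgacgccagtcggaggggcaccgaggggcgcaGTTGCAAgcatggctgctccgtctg
Spag6l, chr16:16829314-16829613, minus strand: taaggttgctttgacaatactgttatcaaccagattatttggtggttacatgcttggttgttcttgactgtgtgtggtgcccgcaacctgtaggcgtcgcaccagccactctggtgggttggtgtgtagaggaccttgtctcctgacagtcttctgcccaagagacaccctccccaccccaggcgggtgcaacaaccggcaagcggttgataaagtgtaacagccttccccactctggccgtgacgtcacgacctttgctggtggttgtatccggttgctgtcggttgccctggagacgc
Spag6, chr2:18698772-18699071, plus strand: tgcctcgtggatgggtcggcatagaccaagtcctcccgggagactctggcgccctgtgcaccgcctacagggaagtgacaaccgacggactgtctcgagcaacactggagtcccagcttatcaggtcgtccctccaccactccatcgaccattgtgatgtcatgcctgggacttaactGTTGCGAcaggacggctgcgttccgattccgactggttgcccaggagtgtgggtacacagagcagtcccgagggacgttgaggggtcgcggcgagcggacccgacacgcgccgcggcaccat
In the promoters of Tekt1, Tekt3 and Rsph14 the X-box core began 15, 31 and 8 bases before the start, and in that of Spag16 it began 25 bases after it. The promoter of Spag6l, the member used in these cells, held no X-box core in this window, and that of Spag6, which had 18 UMIs in all, held 1 at 72 bases before its start. An X-box core was present in 12 of the 61 member promoters (19.7%) and in 10.4% of all 32851 mouse promoters in the table. Among the 34 promoters of members that were higher in MCCs than in non-cycling progenitors, 9 held it (26.5%). Rsph14 has 2 overlapping promoters in the table that hold the same core, which lies 41 bases before the start in the one not shown. With each gene counted once, the core was found for 11 of 49 members (22.4%) and for 8 of the 26 that were higher in MCCs (30.8%), beside 11.9% of all 27025 genes. The forkhead motif was in 16.4% of member promoters, against 13.4% of all promoters, and the cell cycle element was in 9.84%, against 17.9%. The full X-box was in none of the 61 member promoters and in 0.804% of all. These matches are descriptions of letters in a window and say nothing of binding.

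MCCs carried far more RNA of these genes than the non-cycling progenitors, which are progenitors I and II averaged. The summed level of the 58 genes was 4347 and 4814 CPM in MCCs, against 1375 and 1378 CPM in progenitors II and 790 and 760 CPM in progenitors I. Along the lineage it was 907 and 733 CPM in cycling progenitors, 2400 and 2245 CPM in early, 6063 and 5503 CPM in mid and 6012 and 6084 CPM in late deuterosomal cells, and 5686 and 5820 CPM in early MCCs. Thus the summed level was higher at every stage from mid deuterosomal cells to early MCCs than in MCCs, in both libraries, and the libraries differed by less than the steps up to the mid deuterosomal stage. With each cell thinned to 5000 UMIs, the median cell held UMIs of 3 of these genes in progenitors I, 5 in progenitors II, 3 in cycling progenitors, 7 in early deuterosomal cells and 11 from mid deuterosomal cells to MCCs, the same number in both libraries.

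Of the 37 genes tested, 31 were higher in MCCs than in non-cycling progenitors, 2 were lower (Spata3 and Spata5) and 4 did not pass the test (Spag7, Spag9, Spata2l and Spata9). Over all 15877 genes tested, 28.7% were higher and 28.0% lower in this comparison (56.7% in either direction), and the median log2 fold change was -0.03. By family, 7 of 7 tested Rsph genes, 5 of 5 Tekt genes, 2 of 2 Ropn1 genes, 7 of 9 Spag genes and 10 of 14 Spata genes were higher. The largest fitted folds belonged to Tekt3, Spag17 and Spata18. The summed level of microglia in replicate 1 was 1119 CPM, against 315 CPM in replicate 2, and the values that bear on this are given with the other cell types below.

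**Figure D1:**
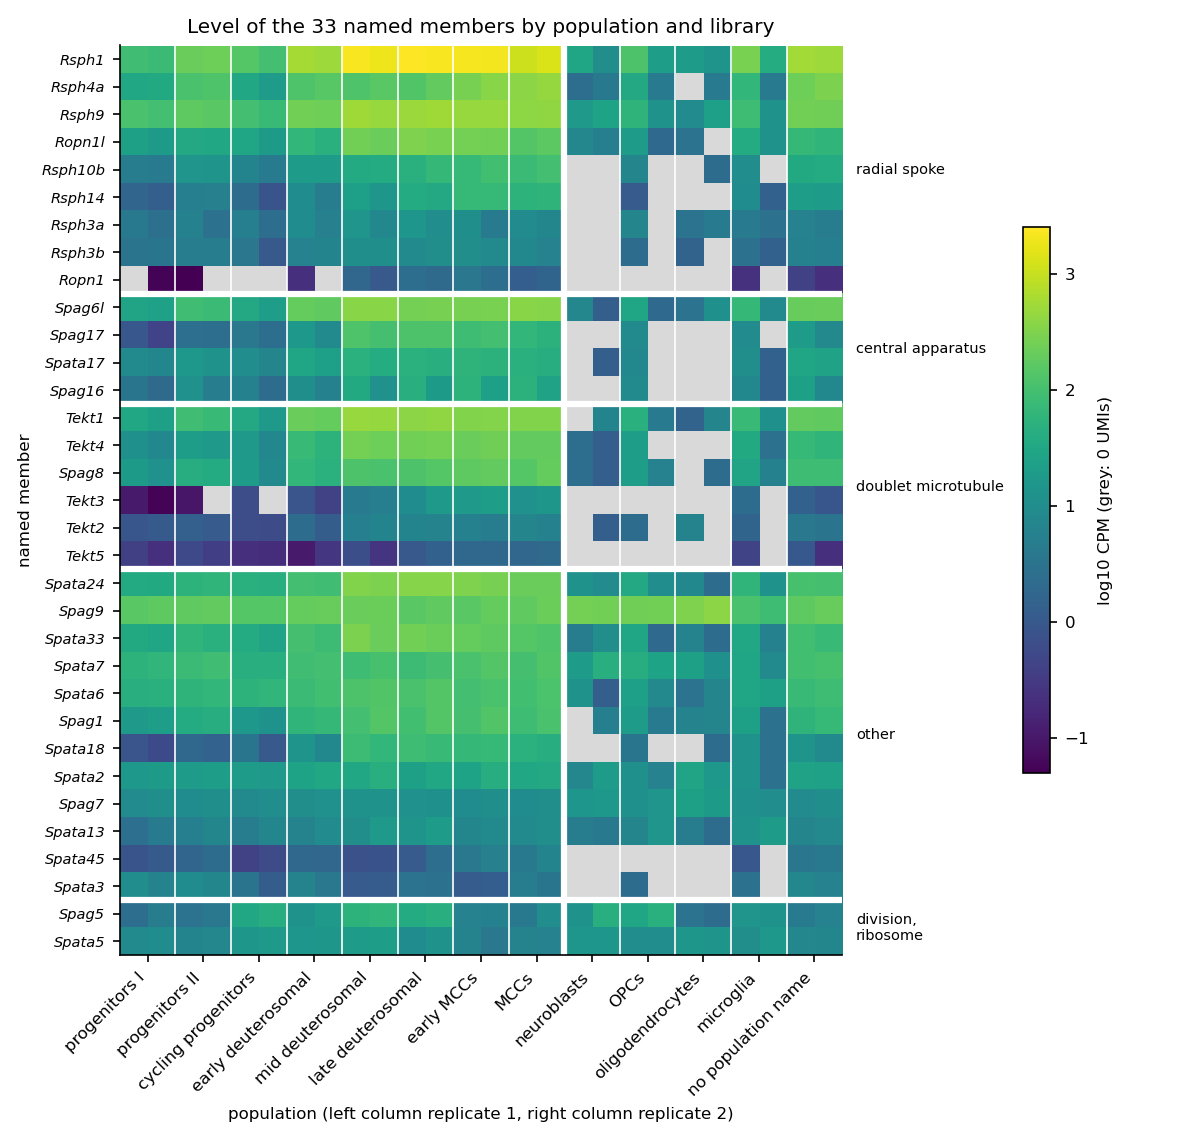
Level of the 33 members named with values (rows, grouped by role) in each population (columns, replicate 1 left and replicate 2 right), as log10 CPM on a colour scale, with grey for 0 UMIs. Rsph1 is the brightest row, reaching 2443 and 2302 CPM in late deuterosomal cells, and most rows brighten between early and mid deuterosomal cells.

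Radial spokes took the largest part of the summed level. The 9 members placed there, the Rsph genes and both ropporins, summed to 2193 and 2557 CPM in MCCs, and Rsph1 alone made up 25.8% and 28.0% of the level of all 58 genes there. Rsph1 (chr17:31255019-31277383, GENCODE M21, GRCm38) encodes a protein of the spoke head, and its human form is mutated in primary ciliary dyskinesia. It had 90.7 and 78.8 CPM in progenitors I, 214 and 228 CPM in progenitors II, 581 and 509 CPM in early, 2251 and 1920.0 CPM in mid and 2443 and 2302 CPM in late deuterosomal cells, 2189 and 2097 CPM in early MCCs and 1122 and 1347 CPM in MCCs. Both libraries were thus near their highest level from mid deuterosomal cells to early MCCs and lower in MCCs. The log2 fold change was 3.15 ± 0.41 (SE, adjusted p = 2.21e-05) for MCCs over non-cycling progenitors, 1.93 ± 0.41 (SE, adjusted p = 0.00205) for early deuterosomal cells over non-cycling progenitors and 2.04 ± 0.50 (SE, adjusted p = 0.00471) for mid over early deuterosomal cells. For MCCs over early MCCs it was -0.79 ± 0.49 (SE, adjusted p = 0.365), which did not pass the test, though it did when those populations alone were fitted and in cells thinned to 5000 UMIs.

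Rsph4a (chr10:33905111-33916021), another head protein, followed a different course. It had 377 and 459 CPM in MCCs, against 111 and 128 CPM in progenitors II and 32.4 and 36.4 CPM in progenitors I. Between those ends it stayed close to the level of progenitors II, with 127 and 149 CPM in early, 126 and 157 CPM in mid and 132 and 189 CPM in late deuterosomal cells, and it had 274 and 360.5 CPM in early MCCs. Its log2 fold change was 2.65 ± 0.26 (SE, adjusted p = 1.29e-06) for MCCs over non-cycling progenitors and 1.00 ± 0.33 (SE, adjusted p = 0.0446) for early MCCs over late deuterosomal cells. For early deuterosomal cells over the average of progenitors I and II it was 1.04 ± 0.27 (SE, adjusted p = 0.00812). It was 0.14 for mid over early and 0.08 for late over mid deuterosomal cells, neither past the test. The calls in early deuterosomal cells and early MCCs both ended without the library block, with DESeq2's Wald test and with equal cell numbers. Rsph1 and Rsph4a thus encode parts of the same spoke head and had their highest levels at different stages, in late deuterosomal cells and in MCCs.

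The other spoke genes had courses of their own. Rsph9, also of the head, had 401 and 417 CPM in MCCs, against 169 and 159.7 CPM in progenitors II, and it had 527 and 474 CPM in mid and 487 and 532 CPM in late deuterosomal cells and 477 and 482 CPM in early MCCs, all above its level in MCCs. Rsph14 (chr10:74957477-75032586) rose at 4 steps in turn: it had 9.76 and 4.92 CPM in early, 22.3 and 15.7 CPM in mid and 39.8 and 34.8 CPM in late deuterosomal cells, 71.4 and 71.5 CPM in early MCCs and 54.5 and 57.4 CPM in MCCs. The log2 fold changes were 0.87 ± 0.18 (SE, adjusted p = 0.00143) for late over mid deuterosomal cells and 0.91 ± 0.17 (SE, adjusted p = 0.000393) for early MCCs over late deuterosomal cells. Neither passed the test without the library block or with equal cell numbers. Its fold was 18.6 between MCCs and non-cycling progenitors. Rsph10b had 81.4 and 97.5 CPM in MCCs, its highest level, against 14 and 13.4 CPM in progenitors II (3.42 ± 0.16 (SE, adjusted p = 3.07e-12) on the log2 scale). The annotation places Pms2 over Rsph10b on the same strand, so its counts are uncertain.

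Rsph3a and Rsph3b encode near-identical proteins of the spoke stalk. Their transcripts share 85.8% and 84.4% of the 50-base words in the last 500 bases, so the authors' counting could split or drop their reads, and their levels are uncertain. Rsph3a had 9.12 and 7.3 CPM and Rsph3b 7.98 and 6.05 CPM in MCCs, against 5.72 and 2.93 CPM and 4.64 and 4.81 CPM in progenitors II. Both were higher in MCCs than in non-cycling progenitors, by 0.95 ± 0.16 (SE, adjusted p = 2.09e-05) and 0.86 ± 0.17 (SE, adjusted p = 0.000117) on the log2 scale.

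The ropporins bind A-kinase anchoring proteins through the same kind of domain as a regulatory subunit of protein kinase A, and the Ropn1l protein belongs to the spoke stalk. Ropn1l had 64.5 and 48 CPM in early, 249 and 207 CPM in mid and 308 and 285 CPM in late deuterosomal cells, 265 and 249 CPM in early MCCs and 138 and 164 CPM in MCCs. It rose by 2.13 ± 0.17 (SE, adjusted p = 1.21e-08) on the log2 scale in mid over early deuterosomal cells, and its change in MCCs over early MCCs was -0.79 ± 0.17 (SE, adjusted p = 0.00392). The latter call ended without the library block, with DESeq2's Wald test and with equal cell numbers. Ropn1, known from the fibrous sheath of sperm, had 39 and 8 UMIs in MCCs (1.27 and 1.67 CPM), against 1 and 0 UMIs in progenitors II and 0 and 1 UMIs in progenitors I. Its difference passed the test (4.99 ± 0.60 (SE, adjusted p = 3.16e-07)), but with so few UMIs in progenitors the size of the fitted value depends on the count that edgeR adds to zeros. Of 9 ropporin partners and fibrous sheath genes listed, 6 passed the filter. Of these, 6 of 6 were higher in MCCs, beside 28.7% of all genes tested, with a median log2 fold change of 2.38. The extremes were Cabyr, Rgs22 and Fsip1 (3.70, 3.51 and 2.44) and Rhpn1, Akap14 and Spa17 (0.95, 1.81 and 2.33). Fsip2 and Akap4 had no UMI in MCCs.

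Of 13 other radial spoke genes listed, 13 were higher in MCCs than in non-cycling progenitors, beside 28.7% of all genes tested, and none lower. Their median log2 fold change was 2.81, beside -0.03 over all genes tested. The adenylate kinase gene Ak8 and the genes Morn3 and Lrrc23 changed most (3.99, 3.80 and 3.49). Iqub, the spoke chaperone gene Dnajb13 and Nme5 changed least (0.99, 1.47 and 1.59).

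Spag6l, Spag16, Spag17 and Spata17 were placed with the central apparatus and summed to 529 and 469 CPM in MCCs, against 122 and 102 CPM in progenitors II. Spag17 (chr3:99885406-100143322), the mouse counterpart of the algal gene PF6, encodes a protein of a projection on the central pair. It had 0.966 and 0.448 CPM in progenitors I, 2.64 and 2.55 CPM in progenitors II, 16.4 and 8.61 CPM in early, 129 and 102 CPM in mid and 121 and 123 CPM in late deuterosomal cells, 87.4 and 97.8 CPM in early MCCs and 65.4 and 52.6 CPM in MCCs. It was nearly silent in both progenitor populations and near its highest level in mid and late deuterosomal cells, whose values overlapped between the libraries. The log2 fold change was 5.36 ± 0.28 (SE, adjusted p = 1.14e-09) for MCCs over non-cycling progenitors and 3.30 ± 0.27 (SE, adjusted p = 3.51e-07) for mid over early deuterosomal cells.

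Spag6l (chr16:16753016-16829456), counterpart of the algal gene PF16, was present earlier. It had 27.3 and 24.5 CPM in progenitors I, 91 and 81.7 CPM in progenitors II, 191 and 179 CPM in early, 362 and 366 CPM in mid and 259 and 269 CPM in late deuterosomal cells, 271 and 286 CPM in early MCCs and 363 and 348 CPM in MCCs. Its log2 fold change was 2.86 ± 0.22 (SE, adjusted p = 6.72e-08) for MCCs over non-cycling progenitors and 1.91 ± 0.22 (SE, adjusted p = 1.17e-05) for early deuterosomal cells over non-cycling progenitors. Spag16, counterpart of the algal gene PF20, had 53.4 and 25.9 CPM in MCCs, against 12.1 and 4.91 CPM in progenitors II (2.98 ± 0.13 (SE, adjusted p = 1.01e-14)), and is taken up again with the libraries. Spata17, which encodes a protein with calmodulin-binding IQ motifs, had 47.2 and 43.2 CPM in MCCs, against 16.1 and 12.7 CPM in progenitors II (2.01 ± 0.12 (SE, adjusted p = 3.71e-13)).

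Of 14 other central apparatus genes listed, 14 were higher in MCCs than in non-cycling progenitors, beside 28.7% of all genes tested. Their median log2 fold change was 2.76. Cfap65, Hydin, whose loss causes hydrocephalus in mice, and Ak7 changed most (5.21, 5.15 and 5.11), and Cfap69, Cfap54 and Cfap74 least (1.74, 2.12 and 2.21).

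**Figure D2:**
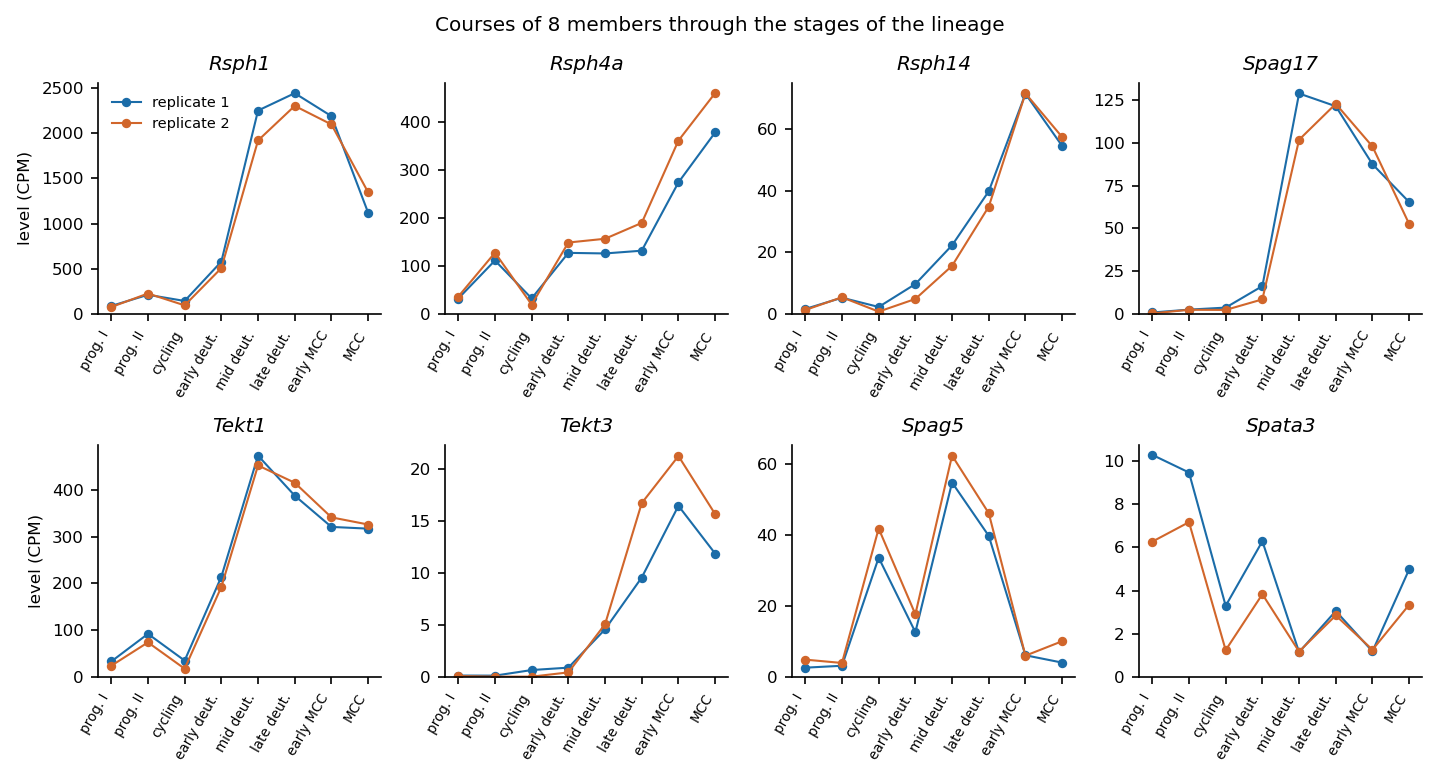
Level in CPM (vertical axes, each from 0 on its own scale) of 8 members through the 8 stages of the lineage, with a line and points for each library. Rsph1 and Tekt1 are high from mid deuterosomal cells on, Rsph4a is highest in MCCs, Spag5 peaks in cycling progenitors and in mid deuterosomal cells, and Spata3 is highest in progenitors I and II.

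The tektins differed widely in level. Tekt1 (chr11:72344722-72362442) and Tekt4 made up nearly all of it. Tekt1 had 32.5 and 23.4 CPM in progenitors I, 91.8 and 73.5 CPM in progenitors II, 214 and 193 CPM in early, 474 and 453 CPM in mid and 388 and 416 CPM in late deuterosomal cells, 321 and 342 CPM in early MCCs and 318 and 326 CPM in MCCs. It was highest in mid deuterosomal cells in both libraries, and the steps after that did not pass the test. Its log2 fold change was 2.70 ± 0.26 (SE, adjusted p = 8.62e-07) for MCCs over non-cycling progenitors and 1.30 ± 0.30 (SE, adjusted p = 0.00305) for mid over early deuterosomal cells. The step from early to mid did not pass without the library block or with DESeq2's Wald test. Tekt4 had 185 and 185 CPM in MCCs, against 20.7 and 16.4 CPM in progenitors II and 11.2 and 7.95 CPM in progenitors I (3.73 ± 0.23 (SE, adjusted p = 1.06e-08)).

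Tekt3 (chr11:63061654-63094964) was almost unseen before the deuterosomal stages and came later than Tekt1. It had 3 and 1 UMIs in progenitors I, 2 and 0 UMIs in progenitors II and 8 and 3 UMIs in early deuterosomal cells. From there it had 4.55 and 5.05 CPM in mid and 9.55 and 16.7 CPM in late deuterosomal cells, 16.4 and 21.2 CPM in early MCCs and 11.9 and 15.7 CPM in MCCs. The log2 fold change was 2.93 ± 0.49 (SE, adjusted p = 3.48e-05) for mid over early deuterosomal cells and 1.25 ± 0.31 (SE, adjusted p = 0.00554) for late over mid deuterosomal cells, and the later step did not pass without the library block, in thinned cells or with DESeq2's Wald test. For MCCs over non-cycling progenitors it was 7.18 ± 0.39 (SE, adjusted p = 6.05e-13), where the few UMIs in progenitors leave the size of the fitted value to the small count the fit adds. Tekt2 had 7 and 5.84 CPM and Tekt5 1.76 and 2.09 CPM in MCCs, against 1.37 and 1.13 CPM and 0.538 and 0.378 CPM in progenitors II, and both were higher in MCCs (2.50 ± 0.25 (SE, adjusted p = 3.43e-09) and 2.07 ± 0.37 (SE, adjusted p = 5.04e-05)). Spag8, another protein of the doublet interior, had 146 and 193 CPM in MCCs, against 41.6 and 38.3 CPM in progenitors II (2.70 ± 0.20 (SE, adjusted p = 2.63e-08)), and was highest in early MCCs of replicate 1 and in MCCs of replicate 2.

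Of 16 other genes of the doublet interior, 16 were higher in MCCs than in non-cycling progenitors, beside 28.7% of all genes tested. Their median log2 fold change was 2.48. Cfap161, Efhc2 and Cfap53 changed most (4.39, 4.39 and 4.24). Nme7 and Cfap20 were among those that changed least (0.94 and 0.98). The tektin-like gene Ccdc105 passed the test with 21 and 0 UMIs in MCCs, so its value rests on replicate 1.

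The remaining members have roles outside the axoneme or roles that are little known. Spag1, an assembly factor that helps fold axonemal dyneins in the cytoplasm, had 88.4 and 114 CPM in MCCs, against 38.5 and 41.8 CPM in progenitors II and 17.6 and 21.6 CPM in progenitors I, with 99.5 and 141 CPM in mid deuterosomal cells and 102 and 135 CPM in early MCCs. Its log2 fold change was 1.78 ± 0.16 (SE, adjusted p = 2.27e-08) for MCCs over non-cycling progenitors. Spata18, which encodes a p53 target also called Mieap that acts on mitochondria, had 13.7 and 7.93 CPM in early, 83 and 66.1 CPM in mid and 86.5 and 74.7 CPM in late deuterosomal cells, 69.1 and 70.6 CPM in early MCCs and 50.9 and 42.6 CPM in MCCs, against 1.86 and 1.51 CPM in progenitors II. It rose 40.3-fold in MCCs over non-cycling progenitors (5.33 ± 0.18 (SE, adjusted p = 2.8e-17)). Its course was close to that of Spag17.

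Spata24 and Spata33 were the most abundant Spata genes in late deuterosomal cells. Spata24 had 358 and 352 CPM there and 208 and 208 CPM in MCCs, against 53.9 and 60.2 CPM in progenitors II (2.14 ± 0.15 (SE, adjusted p = 8.53e-10)). Spata33, known in sperm as an anchor of calcineurin, had 142 and 128 CPM in MCCs, against 59.1 and 48.8 CPM in progenitors II (1.63 ± 0.13 (SE, adjusted p = 1.9e-09)). Both were lower in MCCs than in mid and late deuterosomal cells in each library, a difference that no single step after the mid stage passed.

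Several members outside the axoneme were found at every stage. Spag9, which encodes the scaffold JIP4 that links cargo to microtubule motors, had 178 and 218 CPM in MCCs, against 175 and 188 CPM in progenitors II (0.14 on the log2 scale, not past the test). Spag7 had 9.7 and 10.4 CPM in MCCs, against 9.58 and 10.9 CPM in progenitors II (-0.05, not past the test). Spata7, needed at the connecting cilium of photoreceptors, had 105 and 131 CPM in MCCs, against 80.1 and 89.8 CPM in progenitors II (0.68 ± 0.12 (SE, adjusted p = 6.92e-05)). Spata6, known from the connecting piece of the sperm neck, Spata2, an adaptor of tumour necrosis factor signalling, and Spata13, an exchange factor for small GTPases, rose by 0.87, 0.78 and 0.99 on the log2 scale. In MCCs Spata6 had 93 and 115 CPM, Spata2 31.8 and 34.6 CPM and Spata13 8.4 and 10.4 CPM. Spata13 had 13.7 and 19.6 CPM in late deuterosomal cells and changed by -0.98 ± 0.18 (SE, adjusted p = 0.00019) in early MCCs over late deuterosomal cells, a call that ended in thinned cells and with equal cell numbers.

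Spata3 and Spata45 were low and moved apart from the rest. Spata3 had 10.3 and 6.27 CPM in progenitors I, 9.48 and 7.17 CPM in progenitors II, 6.29 and 3.83 CPM in early, 1.14 and 1.16 CPM in mid and 3.05 and 2.84 CPM in late deuterosomal cells, 1.17 and 1.25 CPM in early MCCs and 4.98 and 3.34 CPM in MCCs. It fell in MCCs relative to non-cycling progenitors (-1.03 ± 0.16 (SE, adjusted p = 8.19e-06)) and in mid relative to early deuterosomal cells (-2.11 ± 0.31 (SE, adjusted p = 6.59e-06)), and rose in MCCs relative to early MCCs (1.92 ± 0.34 (SE, adjusted p = 0.000567)). The last of these calls ended without the library block and in thinned cells. The summed level of 6 radial glial and astroglial markers was 3573 and 3632 CPM in progenitors I, 515 and 573 CPM in mid deuterosomal cells, 1122 and 1273 CPM in early MCCs and 1903 and 2121 CPM in MCCs, and their part in the result was not tested. Spata45 had 4.04 and 6.68 CPM in MCCs, against 1.71 and 2.27 CPM in progenitors II (1.82 ± 0.23 (SE, adjusted p = 5.01e-07)), and 0.74 and 0.776 CPM in mid deuterosomal cells, where it was lower than in early deuterosomal cells (-1.10 ± 0.42 (SE, adjusted p = 0.0336)). That last call rested on 13 and 6 UMIs in mid and 17 and 13 UMIs in early deuterosomal cells. It ended in thinned cells, without the low count filter and without the library block.

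Spag5 had its high levels in cycling progenitors and again in mid and late deuterosomal cells. It encodes astrin, a protein of the mitotic spindle and the centrosome. Spag5 (chr11:78301529-78322457) had 33.6 and 41.9 CPM in cycling progenitors, against 3.08 and 3.87 CPM in progenitors II and 2.54 and 4.81 CPM in progenitors I (3.37 ± 0.18 (SE, adjusted p = 5.05e-14)). In the lineage it had 12.6 and 17.6 CPM in early, 54.9 and 62.5 CPM in mid and 39.8 and 46.2 CPM in late deuterosomal cells, 6.04 and 5.93 CPM in early MCCs and 3.97 and 10 CPM in MCCs. It rose by 2.10 ± 0.18 (SE, adjusted p = 1.39e-09) in mid over early deuterosomal cells, and its change in early MCCs over late deuterosomal cells was -2.76 ± 0.23 (SE, adjusted p = 3.5e-09). The mid deuterosomal level lay above that of cycling progenitors in both libraries, a difference that was not tested. The summed level of 5 division markers ran otherwise, at 2694 and 3011 CPM in cycling progenitors and 876 and 1022 CPM in mid deuterosomal cells. Its small excess in MCCs over non-cycling progenitors (0.61 ± 0.23 (SE, adjusted p = 0.0261)) ended without the library block, with equal cell numbers, in thinned cells and without the deepest cells.

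Within populations, Spag5 was set against the cell cycle class that the submitters gave each cell, a class that presumably also rests on expression. Its level was higher in the S/G2 than in the S class in both libraries of cycling progenitors and of early, mid and late deuterosomal cells, with no test made. The S class of late deuterosomal cells had 31 and 4 cells with 17 and 0 UMIs, so replicate 2 says little there. The S/G2 class of early deuterosomal cells had 14 and 31 UMIs. In mid deuterosomal cells it had 59.4 and 66.2 CPM in the S/G2 class and 40.6 and 44.9 CPM in the S class. In cycling progenitors it had 48.8 and 64.6 CPM in the S/G2 class, 34.7 and 39.8 CPM in the S class and 18 and 16.7 CPM in the G1 class, and the G2/M class had 2 and 0 UMIs. In late deuterosomal cells it had 45.5 and 53.8 CPM in the S/G2 class, 27 and 33.9 CPM in the G0 class and 13.7 and 15.5 CPM in the G2/M class, the G0 values from 16 and 7 UMIs and the G2/M values from 14 and 5. The G0 class thus lay above the G2/M class there, and the classes did not follow 1 order.

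Spata5, an ATPase of ribosome assembly, was higher in cycling progenitors than in non-cycling progenitors (0.92 ± 0.13 (SE, adjusted p = 3.47e-06)). It had 15.4 and 16.6 CPM in cycling progenitors, 19.5 and 20.3 CPM in mid and 9.75 and 12.4 CPM in late deuterosomal cells and 6.28 and 6.05 CPM in MCCs, against 6.74 and 7.55 CPM in progenitors II. Its change in MCCs over non-cycling progenitors was -0.41 ± 0.13 (SE, adjusted p = 0.0118). That call ended with DESeq2's Wald test, with DESeq2 size factors, without the library block and without the deepest cells. Spata18 was the third member that was higher in cycling progenitors, on 32 and 5 UMIs (1.10 ± 0.39 (SE, adjusted p = 0.0287)). That call ended in thinned cells, with equal cell numbers, without the library block and without the deepest cells. In cycling over non-cycling progenitors 3 of the 37 genes tested were thus higher and 9 lower, beside 17.4% and 21.3% of all genes tested, and without the library block 4 passed in either direction. The 9 were Rsph4a, Spag1, Spag6l, Spag8, Spag9, Spata3, Spata45, Spata7 and Tekt1, with log2 changes between -1.82 for Spata3 and -0.29 for Spag9. Rsph4a, for instance, had 32.7 and 19.9 CPM in cycling progenitors, against 111 and 128 CPM in progenitors II and 32.4 and 36.4 CPM in progenitors I. Tekt1 had 34.5 and 17 CPM and Spag6l 34.1 and 22 CPM there, against 32.5 and 23.4 CPM and 27.3 and 24.5 CPM in progenitors I. The calls of Spag6l, Spag8 and Tekt1 also ended with library totals as the only normalization, without the low count filter and without unnamed cells. The log2 fold changes of Spag17 and Tekt3 (1.17 and 2.23) did not pass the test and rest on few UMIs.

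Taken step by step, the 37 tested genes changed mostly before and at the mid deuterosomal stage. In early deuterosomal cells over non-cycling progenitors 26 were higher and 1 was lower (Spata3), beside 21.8% and 19.8% of all genes tested. In mid over early deuterosomal cells 26 were higher and 3 lower (Spata2l, Spata3 and Spata45), beside 28.2% and 20.8%. In late over mid deuterosomal cells 4 were higher (Rsph14, Spag4, Spata3 and Tekt3) and 5 lower (Spag5, Spag9, Spata1, Spata2 and Spata5), beside 8.61% and 13.2%, and without the library block 2 passed in either direction. For Spata1 that step was -0.86 in replicate 1 alone and 0.04 in replicate 2 alone.

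In early MCCs over late deuterosomal cells 4 were higher (Rsph14, Rsph4a, Spata45 and Spata7) and 4 lower (Spag5, Spata13, Spata3 and Spata5), beside 10.3% and 12.4% of all genes tested. In MCCs over early MCCs 2 were higher (Spata1 and Spata3) and 3 lower (Ropn1, Ropn1l and Spata18), beside 4.58% and 6.29%. In these steps the members' shares lay near those of all genes, and 4 and 0 members passed without the library block. The stages with the highest mean level were progenitors II for 3 of the 37 (Spata2l, Spata3 and Spata9), mid deuterosomal cells for 11, late deuterosomal cells for 10, early MCCs for 7 and MCCs for 6 (Rsph10b, Rsph4a, Spag16, Spata1, Spata45 and Tekt5). Spag4, Spata1, Spata2l and Spata9 are named for these counts after their values were seen.

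**Figure D3:**
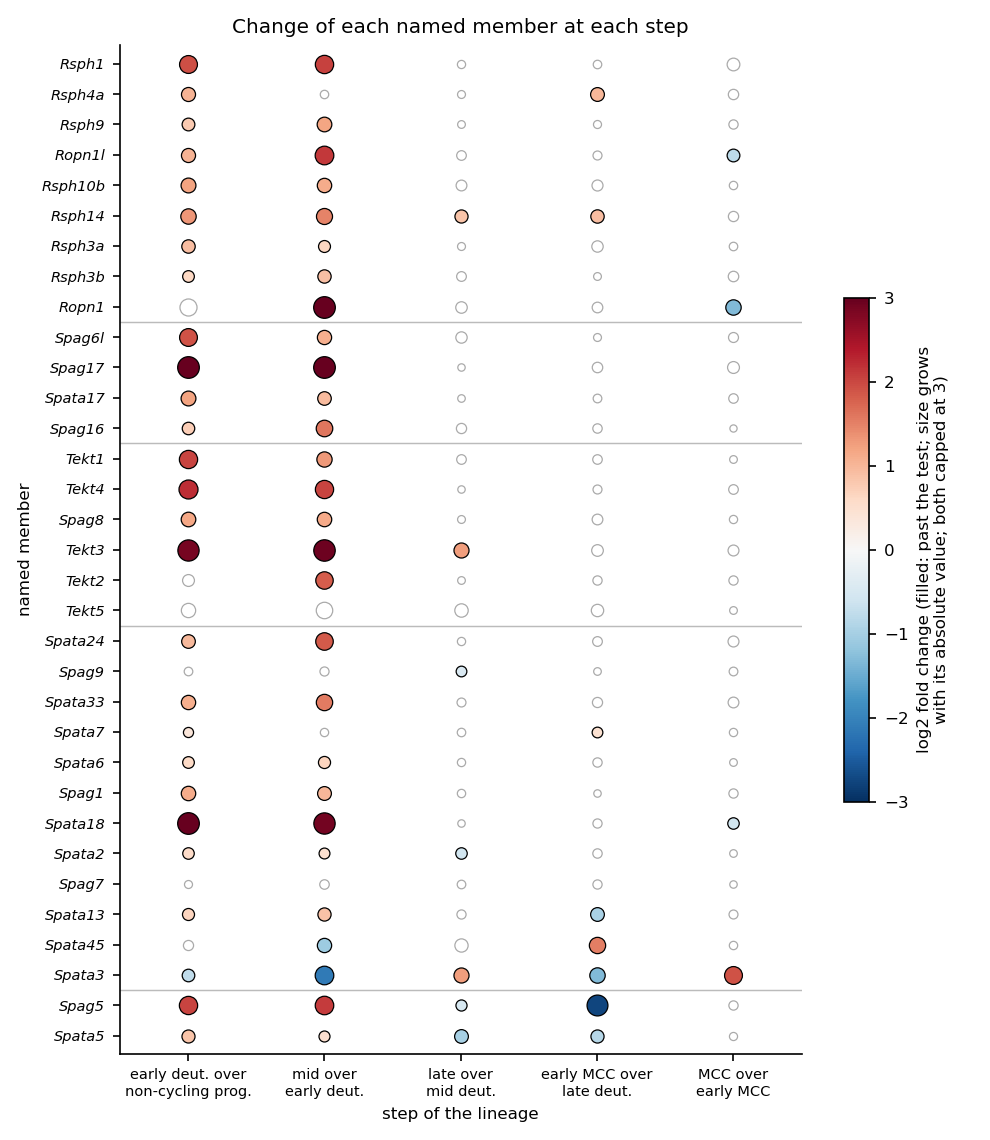
Change of the 33 named members (rows, grouped by role) at the 5 steps of the lineage (columns), later stage over earlier. Colour and size give the log2 fold change, capped at 3, and filled points passed the test. Filled points crowd the columns for the early and mid deuterosomal steps, and few lie to the right of them, among them Rsph14, Rsph4a and Spata45 in the step to early MCCs.

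Within several pairs of relatives, MCCs used 1 member far more than the other. Spag6l had 363 and 348 CPM in MCCs and 34423 and 10711 UMIs over all cells, while Spag6, its relative on another chromosome, had 17 and 1 UMIs over all cells. Rsph4a had 377 and 459 CPM in MCCs, while Rsph6a, the spoke head gene of mouse sperm, had 14 and 6 UMIs over all cells. Ropn1l had 138 and 164 CPM and Ropn1 1.27 and 1.67 CPM in MCCs. Spata2 had 31.8 and 34.6 CPM and Spata2l 1.99 and 1.46 CPM in MCCs. No 50-base word in the last 500 bases of the transcripts was shared within any of these pairs.

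**Figure D4:**
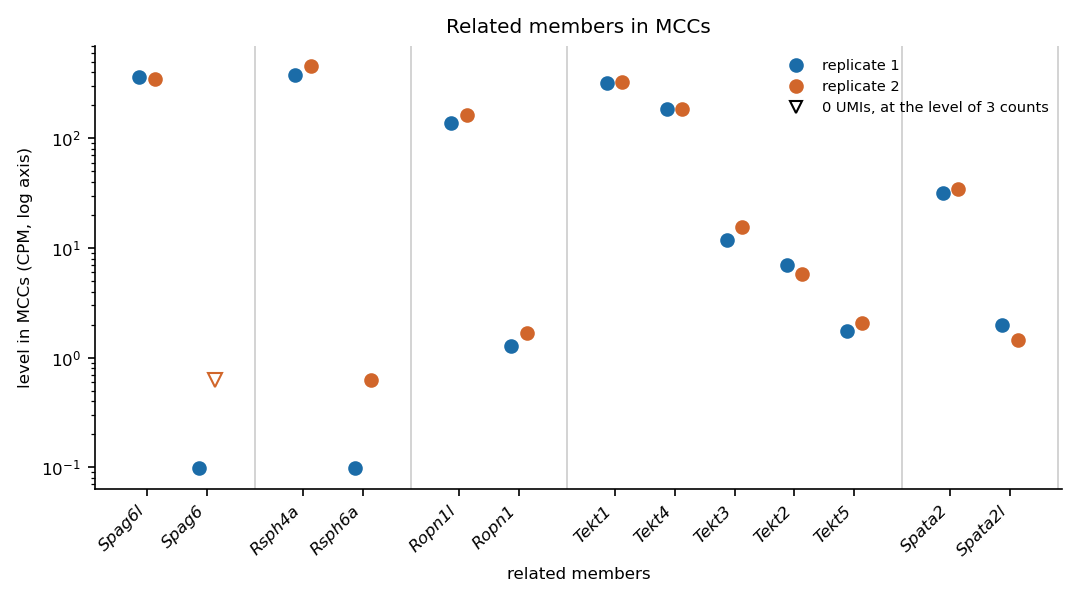
Level in MCCs (CPM, log axis) of related members, with a point for each library and an open triangle, drawn at the level of 3 counts, where a library had 0 UMIs. Spag6l, Rsph4a and Ropn1l lie far above Spag6, Rsph6a and Ropn1, and Tekt1 and Tekt4 lie above Tekt3, Tekt2 and Tekt5.

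Genes known from spermatids and germ cells and not from motile cilia were scarce. Of 32 listed, 8 had no UMI in either library and 5 passed the filter, of which 2 were higher in MCCs than in non-cycling progenitors, beside 28.7% of all genes tested, and none lower. These 2 were Dazl, a germ cell RNA-binding protein (3.38 on the log2 scale, 2.31 and 2.71 CPM in MCCs), and Zpbp, of the acrosome (0.99, 1.20 and 1.46 CPM). The 32 genes together summed to 11.5 and 8.77 CPM in MCCs, against 6.06 and 5.00 CPM in progenitors II and 5.08 and 4.76 CPM in progenitors I.

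RNA of the axonemal members was also found, below the level of MCCs, in cells that should lack it. Replicate 1 microglia held Rsph1 at 25.7% of its level in MCCs of that library, Tekt1 at 24.4%, Spag6l at 19% and Rsph4a at 16.9%. Replicate 2 microglia, from 43 cells, held them at 3%, 3.54%, 2.49% and 0.943%. The 6 MCC markers moved with them, at 561 and 91.0 CPM in microglia and none at 0 UMIs, against 3123 and 2966 CPM in MCCs. In the other direction, 6 microglial markers summed to 6.97 and 2.30 CPM in MCCs, where 0 and 2 of them had no UMI, against 10865 and 12473 CPM in microglia. Oligodendrocyte precursor cells, 68 and 34 in number, likewise differed between the libraries: those of replicate 1 held Rsph1 at 10.8%, Tekt1 at 15%, Spag6l at 8.43% and Rsph4a at 9% of the level in MCCs, and those of replicate 2 held them at 1.51%, 1.25%, 0.585% and 0.887%. Their 6 MCC markers summed to 388 and 42.7 CPM, with 0 and 4 of them at 0 UMIs. How these cells came to hold these RNAs was not tested. Oligodendrocytes held Rsph1 at 1.68% and 1.01% of its level in MCCs.

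Shares of cells were read against that background. After thinning to 5000 UMIs, which left out 607 shallower cells (479 and 128), Rsph1 was found in 99.1% (98.5 to 99.4%) and 99.6% (97.9 to 100%) of MCCs, with exact 95% intervals that cover counting error only. It was found in 60.7% (58.3 to 63.1%) and 63.5% (59.9 to 66.9%) of progenitors II, and in 30.7% (25.4 to 36.4%) and 7.69% (1.61 to 20.9%) of microglia. The median depth was 13053 and 16747.5 UMIs in MCCs, 10184 and 12434 in progenitors II and 13668 and 17034 in microglia, and the unthinned shares of Rsph1 were 100% and 100%, 80.8% and 83.4% and 44.6% and 13.9%. By share of cells with Rsph1, progenitors II thus lay above microglia in both libraries. By level they did so only in replicate 2. Microglia had 288 and 40.4 CPM of Rsph1, against 214 and 228 CPM in progenitors II. The level of Rsph4a was lower in microglia in both libraries, at 63.6 and 4.33 CPM, against 111 and 128 CPM in progenitors II. Rsph4a was found in 81.5% (79.8 to 83.2%) and 85.4% (80.6 to 89.5%) of MCCs and 40.6% (38.2 to 43%) and 42.1% (38.5 to 45.8%) of progenitors II, against 15.3% (11.4 to 20%) and 2.56% (0.0649 to 13.5%) of microglia, with unthinned shares of 96.8% and 99.2%, 61.5% and 70.7% and 25.6% and 6.98%.

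Not all members marked the multiciliated lineage. Spag9 stood in oligodendrocytes at 175% and 173% of the MCC level. Spag5 stood at 741% and 488% of the MCC level in oligodendrocyte precursor cells, whose division markers were also high, at 1994 and 3998 CPM. Spata5 and Spag7 were likewise found in every population fitted. Cells without a population name held 2500 and 2501 CPM of the 58 genes, between the early and mid deuterosomal levels, with 1414 and 1284 CPM of the 6 MCC markers.

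Some members differed between the libraries in the same direction at every stage, Spag16 (chr1:69826970-70725132) by the widest margin among the 37 tested. Spag16 was higher in replicate 1 at all 8 stages, with a ratio between 1.60 and 2.92 and a median of 2.42 after 0.5 was added to each count. At mid deuterosomal cells, for example, it had 35.3 and 12 CPM. A ratio above 1.5 at all 8 stages was found for 67 of the 15877 genes tested (0.422%), and Spag16 is the 1 member among them. No member had the reverse pattern, which 102 genes had. With no such limit on size, Rsph3a, Spata17 and Spata33 were also higher in replicate 1 at all 8 stages, with median ratios of 1.75, 1.21 and 1.23, and Spag5, Spata13 and Spata6 were lower at all 8, with median ratios of 0.797, 0.693 and 0.878 (for Spag5 the ratio reached 0.999). Substrain, culture, run and Cell Ranger version cannot be told apart with 1 library each. For Spag16, MCCs over non-cycling progenitors gave 3.03 in replicate 1 alone and 2.96 in replicate 2 alone on the log2 scale, while mid over early deuterosomal cells gave 1.64 and 1.03. Its highest level was in early MCCs in replicate 1 and in MCCs in replicate 2.

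**Figure D5:**
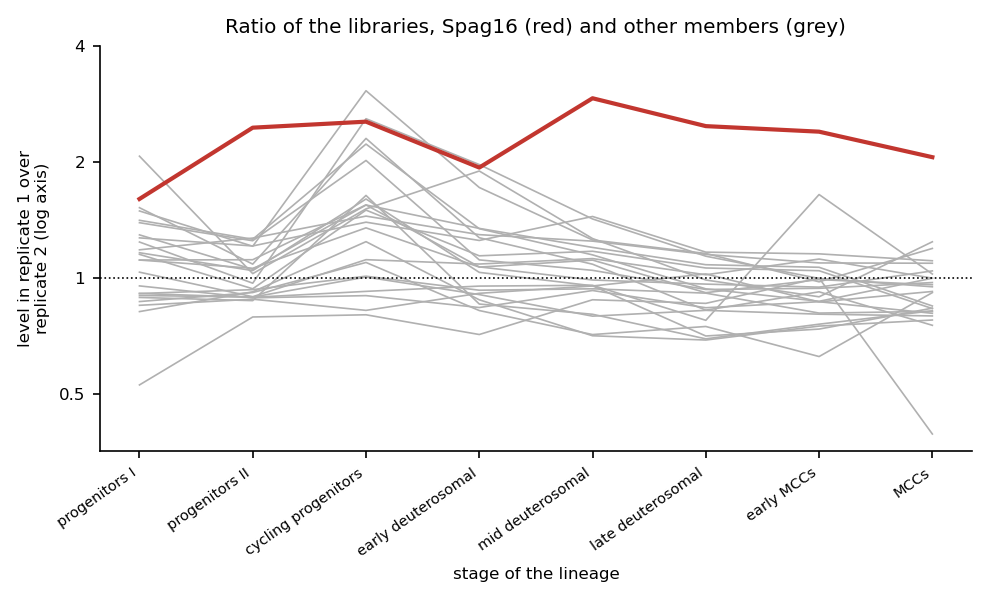
Level in replicate 1 over that in replicate 2 (vertical axis, log scale, 0.5 added to each count) at each of the 8 stages, for the 24 tested members with a mean level of at least 10 CPM. Spag16 (red) runs between 1.60 and 2.92 at every stage, while the other 23 members (grey) lie on both sides of 1. In cycling progenitors most of the grey members lie above 1. There Spata18 (3.05) and Rsph14 (2.58) lie above Spag16 (2.54).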

How the data were processed

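Values are UMI counts for each gene in each cell, as the authors deposited them. The submitters' processing notes name Cell Ranger in versions 3 and 5.0.1 and the build mm10. The version behind each library, the cell filter, the source of the population names and the treatment of doublets are not given in the sources used here. Every value was a whole number and every cell was kept.

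For each population and library the counts were added up, giving 26 sums from the 13 populations that had 20 or more cells on both sides; fibroblasts fell short, with 18 in replicate 1. The fit used edgeR 4.0.16 under R 4.3.3, TMM factors between 0.739 and 1.20, the default low count filter and robust quasi-likelihood tests. Tests were two-sided and adjusted by Benjamini-Hochberg over 15877 genes, with a threshold of 0.05. Population and library were the terms, leaving 12 residual degrees of freedom. The procedure was also run on simulated counts, which held no library effect and so say nothing of the block. Blocking by library follows from its populations sharing 1 culture, substrain and run; their deviations from the population means had a median correlation of 0.184 (-0.00168 to 0.647). A standard error is the log2 fold change over the root of F. Nothing says that the cultures differed in litter or day. The p-values rest only on the scatter left between these 2 libraries after the block. DESeq2 1.42.0 was an alternative. Coordinates and gene overlaps come from GENCODE M21 (GRCm38, which mm10 names too).

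Of the members, every one with a mean of at least 10 CPM in a fitted population, or past the test in MCCs or early deuterosomal cells over non-cycling progenitors with an absolute log2 fold change of at least 1, is named with values, which gave 33. From each list up to 3 genes with the highest and 3 with the lowest change are named. The members, lists and comparisons were chosen with earlier results of these data known. Shares of thinned cells (5000 UMIs) have Clopper-Pearson exact limits at 95%, from scipy 1.17.1, and a count of 0 was read as allowing 3 counts.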

Additional observations from a re-analysis of the deposited data

How the results depend on the processing

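The counts of members called moved by more than 1.5 times from 33, 27, 29, 9, 8, 5 and 12, for MCCs over non-cycling progenitors, the 5 steps in order from early deuterosomal cells over non-cycling progenitors to MCCs over early MCCs, and cycling over non-cycling progenitors, under the following alternatives. With no replicate block, 2 were called for late over mid deuterosomal cells, 4 for early MCCs over late deuterosomal cells, 0 for MCCs over early MCCs and 4 for cycling progenitors, while the other 3 comparisons gave 30, 18 and 22. With equal cells per population, 34 from each, the counts were 18, 7, 12, 0, 1, 0 and 1, which by construction leaves far fewer UMIs. DESeq2's Wald test gave 5 for late over mid deuterosomal cells and 2 for MCCs over early MCCs. With only the populations compared in the fit, the counts for the last 3 steps were 15, 21 and 17; in thinned cells they were 4, 5 and 8; and without the deepest 10% of cells the last step gave 8. Where edgeR's quasi-likelihood test called 0, members with an unadjusted p under 0.05 numbered 4 with no replicate block for MCCs over early MCCs, and with equal cells 2 for late over mid deuterosomal cells and 3 for MCCs over early MCCs. The cause of the other changes was not tested. Of 1446 values of single genes under an alternative, 1219 kept their direction and side of the threshold or moved by less than the spread, 144 were no longer past it, 8 newly passed it, 70 moved in a single library and 5 reversed. The reversed values, none past the test in either form, were Spag7 in MCCs over non-cycling progenitors (0.0394 with DESeq2 size factors, 0.0403 with DESeq2's Wald test and 0.00429 without the deepest cells), Spag9 in that comparison (-0.10 with equal cells) and Spag17 in cycling over non-cycling progenitors (-0.0581 with equal cells). Normalization with DESeq2 size factors or library totals changed no count of members by more than 1.5 times. The 21 members below the filter were not tested in the main fit. Without that filter the 16 of them with UMIs were fitted too. It called 37 members for MCCs over non-cycling progenitors, against 33 in the main fit. Those 16 had 71 UMIs or fewer over both libraries.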
